A study of Mus musculus with 6 samples.

Results

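The immediate-early genes described here are Fos, Fosb, Junb, Egr1, Egr2, Arc, Npas4, Nr4a1, Ier2 and Dusp1, a set of 10 chosen by name among the 37620 genes with expression values. All 10 were found in the table and all 10 had enough counts to be tested. The tissue was the prelimbic cortex (PLc), a medial region of the prefrontal cortex, of male C57Bl/6 mice aged 9 weeks. The 3 saline mice, numbered 1, 6 and 10, received the vehicle once a day for 5 days. The 3 ketamine mice, numbered 3, 5 and 9, received ketamine at 30 mg/kg by intraperitoneal injection on the same schedule, which is the sub-chronic regime. Brains of both groups were taken 2 days after the last injection, and each mouse gave 1 RNA Seq library of the dissected tissue.

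Immediate-early genes are transcribed within minutes of calcium entry through NMDA receptors and voltage-gated channels, without any need for new protein. Transcription factors that are already in the nucleus switch them on, among them CREB at the cAMP response element (CRE) and serum response factor at the CArG box. Most of their mRNAs decay quickly, so in the cortex they serve as a record of recent neuronal activity. Ketamine is an open-channel blocker of the NMDA receptor.

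RefSeq sequence of the 250 bases before a transcription start, on build GRCm38.p6, was matched for 7 of the 10 genes. The 5 windows below are examples that hold letters of elements on which activity-dependent factors are known to act. Each is written from 5′ to 3′ towards the start, with matches to the searched motifs in capitals. The motifs searched on both strands were the CRE core (TGACG or CGTCA), the full CRE (TGACGTCA, in which 2 cores overlap) and the CArG box, and TATAAA was searched on the sense strand. Egr2 has 5 annotated starts, and the third is shown. The windows of Fosb and Junb also hold a CRE core and are not shown.
Fos, chr12:85473640-85473889, plus strand: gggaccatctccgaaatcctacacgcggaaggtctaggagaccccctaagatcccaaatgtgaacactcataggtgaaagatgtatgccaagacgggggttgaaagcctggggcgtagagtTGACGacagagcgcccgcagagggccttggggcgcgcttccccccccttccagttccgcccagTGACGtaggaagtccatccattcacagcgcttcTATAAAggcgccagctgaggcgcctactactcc
Egr2, chr10:67537619-67537868, plus strand: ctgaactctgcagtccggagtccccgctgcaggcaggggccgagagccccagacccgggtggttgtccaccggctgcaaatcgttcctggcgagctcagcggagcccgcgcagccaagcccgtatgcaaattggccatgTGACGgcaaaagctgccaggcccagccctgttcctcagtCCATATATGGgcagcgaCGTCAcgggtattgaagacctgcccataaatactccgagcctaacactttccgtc
Npas4, chr19:4989972-4990221, minus strand: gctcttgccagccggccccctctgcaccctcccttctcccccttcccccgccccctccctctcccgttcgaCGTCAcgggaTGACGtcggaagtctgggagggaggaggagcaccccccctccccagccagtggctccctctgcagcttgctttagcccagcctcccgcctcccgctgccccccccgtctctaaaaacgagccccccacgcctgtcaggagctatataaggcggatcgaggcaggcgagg
Nr4a1, chr15:101266596-101266845, plus strand: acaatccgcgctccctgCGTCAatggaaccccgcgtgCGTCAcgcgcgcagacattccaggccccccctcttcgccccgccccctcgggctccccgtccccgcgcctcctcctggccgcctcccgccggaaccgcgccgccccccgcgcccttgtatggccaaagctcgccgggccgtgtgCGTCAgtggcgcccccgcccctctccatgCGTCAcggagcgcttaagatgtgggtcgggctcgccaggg
Dusp1, chr17:26508473-26508722, minus strand: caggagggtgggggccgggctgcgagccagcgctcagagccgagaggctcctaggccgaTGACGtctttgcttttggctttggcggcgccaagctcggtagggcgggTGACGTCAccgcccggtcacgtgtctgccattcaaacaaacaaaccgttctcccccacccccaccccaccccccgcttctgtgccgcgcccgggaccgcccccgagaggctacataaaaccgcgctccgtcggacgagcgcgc
A CRE core was present in at least 1 window of 7 of the 7 matched genes. Counted by window and not by gene, 17.8% of all 32851 windows of this length held a core. Egr2, the sole matched gene with more than 1 window, held a core at 3 of the 5 starts. The core nearest to the start began 66 bases before it in Fos, 60 in Fosb, 106 in Junb, 55 in Egr2, 169 in Npas4, 40 in Nr4a1 and 140 in Dusp1. Dusp1 alone among these genes held the full palindrome (1.55% of all windows), Egr2 alone held a CArG box in this window (1.47%), and Fos alone held TATAAA (7.59%). These are matches of letters and were not measured as binding sites. For Arc, Egr1 and Ier2 no sequence is shown.

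Expression is given in normalized counts, the reads of a gene divided by a factor for the depth of the library. The 6 libraries held between 26273436 and 32643726 reads, and a normalized count stood for between 0.911 and 1.103 reads. Groups were compared by limma on log2(normalized count + 1) in 16127 genes that averaged 10 or more normalized counts. The log2 fold change is ketamine minus saline, and p-values were adjusted over all these genes with Benjamini-Hochberg correction, at a threshold of 0.05. Each gene was also compared by a two-sided exact permutation test, which cannot go below p = 0.1 with 3 mice against 3.

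All 10 genes had a higher mean log2 expression in the ketamine mice. Their log2 fold changes ran from 0.22 (Egr1) to 1.35 (Fos), with a median of 0.63, and 9 of the 10 were at least 0.5, which 7.15% of all tested genes reached. Over all tested genes the median was -0.01, and 47.0% were higher in ketamine. The 10 genes went largely up and down together between mice, so they are not independent of each other. None of the 10 passed the threshold in limma, where 0.0% of all tested genes passed, nor with edgeR (0.0%) or DESeq2 (1.13%) on the recovered reads. At an unadjusted p under 0.05, limma found 0 of the 10 (5.81% of all genes), edgeR found 1, Fosb (6.24%), and DESeq2 found 2, Fos and Fosb (6.54%). The saline and ketamine mice overlapped for each of the 10, while 10.3% of all tested genes did not overlap (5.69% with all ketamine mice above all saline mice and 4.66% with all below). In RNA of whole tissue, more (or fewer) cells that express a gene and more (or less) of its mRNA per cell cannot be told apart.

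**Figure D1:**
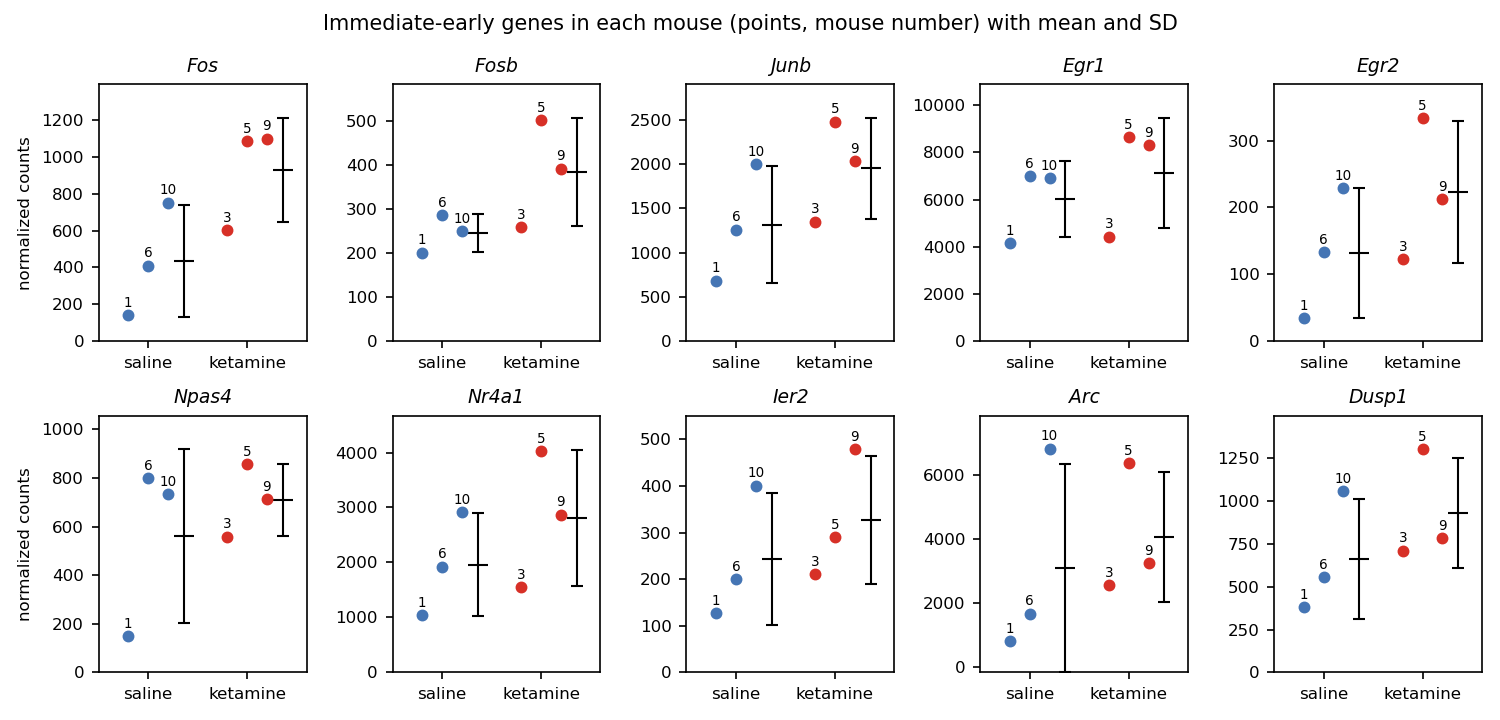
Normalized counts (y axis, linear) of each immediate-early gene in the 3 saline mice (blue) and the 3 ketamine mice (red), each point marked with the mouse number, with the group mean and SD in black beside the points (for Arc the SD of the saline mice reaches below 0). Saline mouse 1 is the lowest of the 6 mice in all 10 panels, and the groups overlap in each.

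Among the subunits of AP-1, the dimeric factor of Fos and Jun proteins, Fos showed the largest difference of the 10 genes. Fos (ENSMUSG00000021250, mm9 chromosome 12 from 86814840 to 86818223, plus strand) had 141, 409 and 752 normalized counts in mice 1, 6 and 10 of the saline group, against 603, 1086 and 1100.4 in ketamine mice 3, 5 and 9. Ketamine mice 5 and 9 were above all saline mice, and ketamine mouse 3 lay below saline mouse 10. The means were 434 ± 306 in saline and 929.7 ± 283 in ketamine (SD, n = 3 each). This was a log2 fold change of 1.35 (standard error 0.58, 95% interval -0.01 to 2.71, unadjusted p = 0.0514 and adjusted p = 0.865 by limma, exact permutation p = 0.2). Without saline mouse 1 it was 0.69 (-0.22 to 1.6).

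Fosb, whose transcripts encode both full-length FosB and the long-lived truncated ΔFosB, had the narrowest spread among saline mice. A table per gene does not separate these isoforms. Fosb (ENSMUSG00000003545, chromosome 7 from 19888070 to 19895394, minus strand) had 201, 286 and 250.4 normalized counts in the saline mice and 258, 503 and 392 in the ketamine mice. Ketamine mice 5 and 9 again stood above all saline mice, with mouse 3 inside the saline range. The means were 245.7 ± 42.4 and 384.7 ± 123 (SD, n = 3 each), and ketamine exceeded saline by 0.61 on the log2 scale (standard error 0.27, 95% interval -0.03 to 1.24, unadjusted p = 0.0581 and adjusted p = 0.879 by limma, exact permutation p = 0.2). DESeq2 gave 0.65 (adjusted p = 0.598). Of the 10 genes, Fosb lost least when saline mouse 1 was left out, with a log2 fold change of 0.47.

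Junb, which encodes a Jun partner of the Fos proteins, lies on chromosome 8 from 87500811 to 87502617 on the minus strand (ENSMUSG00000052837). Junb had 683, 1260.4 and 2001 normalized counts in saline mice 1, 6 and 10, against 1351, 2482 and 2030.4 in ketamine mice 3, 5 and 9. Saline mouse 10 and ketamine mouse 9 were nearly equal, and ketamine mouse 5 was highest. limma estimated the log2 fold change at 0.66 ± 0.40 (SE, adjusted p = 0.999, exact permutation p = 0.2), and 0.26 without saline mouse 1.

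The zinc finger factors of the EGR family bind a shared GC-rich element, and Egr1 had the highest level per exon length of the 10 genes. Egr1 (ENSMUSG00000038418, chromosome 18 from 35020861 to 35024638, plus strand) shares 8 exon bases with Gm17507 on the other strand, which averaged 2.29 normalized counts. Egr1 had 4163, 7007 and 6918 normalized counts in the saline mice and 4426, 8641 and 8311 in the ketamine mice. In each group 1 mouse (saline 1, ketamine 3) was well below the other two, and the remaining ketamine mice were above the remaining saline mice. On the log2 scale ketamine exceeded saline by 0.22 ± 0.32 (SE, 95% interval -0.53 to 0.96, adjusted p = 0.999 by limma, exact permutation p = 0.5). Without saline mouse 1 its sign turned, to -0.029.

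Egr2 had the lowest level per exon length of the 10 and had the widest range over the 6 mice, 9.69-fold. Egr2 (ENSMUSG00000037868, chromosome 10 from 66998223 to 67004936, plus strand) had 34.5, 133 and 228 normalized counts in the saline mice and 122, 334 and 212 in the ketamine mice. Saline mouse 1 rested on 36 reads, for which counting error alone allows 24.2 to 47.7 normalized counts, below the value of every other mouse. Only ketamine mouse 5 was above all saline mice. The fitted difference of 1.004 ± 0.69 (log2, SE, limma adjusted p = 0.999, exact permutation p = 0.5) dropped to 0.24 without saline mouse 1.

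Npas4, a bHLH-PAS factor that is induced by calcium entry in neurons, differed mainly in a single mouse. Npas4 (ENSMUSG00000045903, chromosome 19 from 4984355 to 4989971, minus strand) had 149, 798 and 734 normalized counts in the saline mice and 558, 857 and 712 in the ketamine mice. Apart from saline mouse 1, the remaining 5 mice lay between 558 and 857, with both saline mice inside the range of the ketamine mice. The fitted log2 difference was 0.65 ± 0.61 (SE, adjusted p = 0.999 by limma, exact permutation p = 0.7). It turned to -0.13 (95% interval -0.67 to 0.41) without saline mouse 1.

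Nr4a1, an orphan nuclear receptor also known as Nur77, spread widely in both groups. Nr4a1 (ENSMUSG00000023034, chromosome 15 from 101097277 to 101105223, plus strand) had 1046, 1924 and 2913 normalized counts in the saline mice and 1549.5, 4025.5 and 2872 in the ketamine mice. Ketamine mouse 5 was above all saline mice, and ketamine mice 3 and 9 were inside the saline range. limma estimated the log2 fold change at 0.54 ± 0.45 (SE, adjusted p = 0.999, exact permutation p = 0.5), and 0.14 without saline mouse 1.

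The other members are not classical DNA-binding factors. Ier2, a small nuclear protein (ENSMUSG00000053560, chromosome 8 from 87185230 to 87186751, minus strand), had 127, 201 and 401 normalized counts in the saline mice and 210.5, 291 and 479 in the ketamine mice. Ketamine mouse 9 was highest and ketamine mice 3 and 5 lay between saline mice 6 and 10. On the log2 scale ketamine exceeded saline by 0.50 ± 0.46 (SE, adjusted p = 0.999 by limma, exact permutation p = 0.4), and 0.12 without saline mouse 1.

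Arc, whose protein acts at synapses on the trafficking of AMPA receptors, was the member with the largest spread among saline mice. Arc (ENSMUSG00000022602, chromosome 15 from 74499513 to 74503000, minus strand) had 803, 1671 and 6824 normalized counts in the saline mice and 2558, 6371 and 3246 in the ketamine mice. Saline mouse 10 was the highest of all 6 mice, 8.5-fold above saline mouse 1, and no ketamine mouse was above all saline mice. The fitted log2 difference was 0.84 ± 0.74 (SE, 95% interval -0.90 to 2.59, adjusted p = 0.999 by limma, exact permutation p = 0.5). It ranged from 0.15 without saline mouse 1 to 1.696 without saline mouse 10.

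Dusp1 encodes a phosphatase that removes the activating phosphates from MAP kinases and so ends the signal that induces it. Dusp1 (ENSMUSG00000024190, chromosome 17 from 26642535 to 26645464, minus strand) had 378, 555 and 1054 normalized counts in the saline mice and 709, 1299 and 780.4 in the ketamine mice. Ketamine mouse 5 was highest, and ketamine mice 3 and 9 were above saline mice 1 and 6 but below saline mouse 10. limma estimated the log2 fold change at 0.57 ± 0.40 (SE, adjusted p = 0.999, exact permutation p = 0.4), and 0.23 without saline mouse 1.

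**Figure D2:**
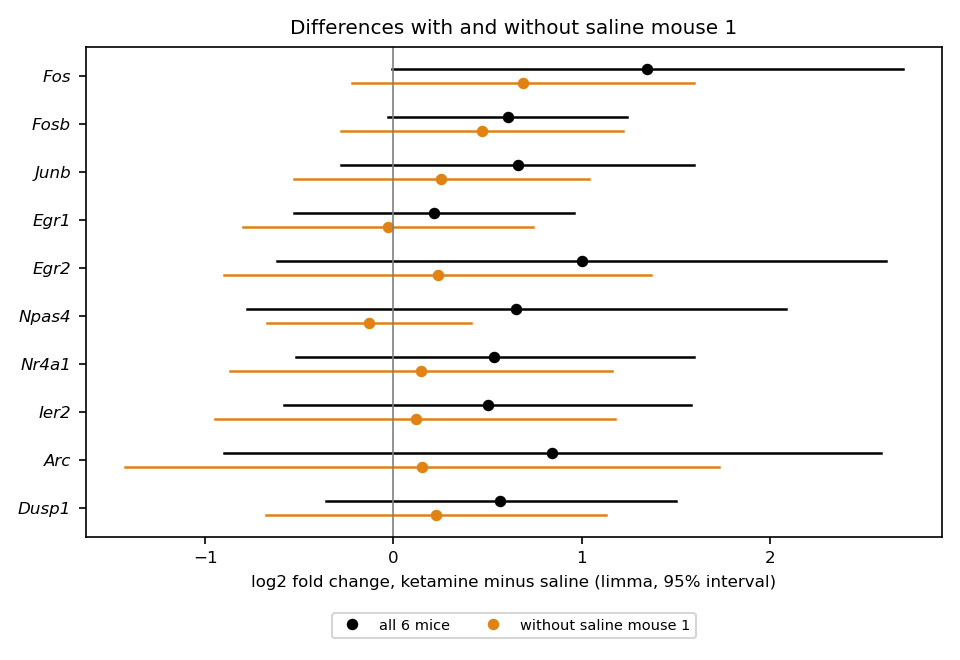
Log2 fold change of each gene (x axis, ketamine minus saline, limma) with its 95% interval, over all 6 mice (black) and without saline mouse 1 (orange). All 10 points are above 0 with all mice, 8 of 10 are without saline mouse 1, and every interval includes 0. Fits without another mouse are not drawn.

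Leaving out saline mouse 1 had to lower the log2 fold change of all 10 genes, because that mouse had the lowest value of each. The median over the 10 moved from 0.63 to 0.19. Without saline mouse 1, 8 of the 10 genes were still higher in ketamine, beside 47.0% of all tested genes. As the 10 genes went largely together between mice, this count does not stand for separate observations. Leaving out any other mouse kept all 10 higher. The median was 0.69 without saline mouse 6 and 0.99 without saline mouse 10. It was 0.89, 0.46 and 0.62 without ketamine mouse 3, 5 and 9.

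Saline mouse 1 was the lowest of the 6 mice for 10 of the 10 genes, whereas 12.7% of all tested genes were lowest in that mouse. Ketamine mouse 5 was the highest for 7 genes, ketamine mouse 9 for Fos and Ier2, and saline mouse 10 for Arc. With the saline mean set to 0, the log2 values of the 10 genes averaged -0.96 in saline mouse 1, 0.15 in mouse 6 and 0.81 in mouse 10. For ketamine mouse 3 this average was 0.15, for mouse 5 it was 1.12 and for mouse 9 it was 0.81. The average level of ketamine mouse 3 was thus close to that of saline mouse 6, and that of ketamine mouse 9 close to that of saline mouse 10. Within the saline group all 10 genes were higher in mouse 6 than in mouse 1, with a median of 0.88 on the log2 scale. The 4 genes at least 2-fold higher in mouse 6 (1.51% of all tested genes were) were Npas4 at 5.34-fold, Egr2 at 3.86-fold, Fos at 2.91-fold and Arc at 2.08-fold. Within the ketamine group all 10 genes were higher in mouse 5 than in mouse 3, with a median of 0.92. Here Egr2, Nr4a1 and Arc were at least 2-fold higher in mouse 5, at 2.73-fold, 2.6-fold and 2.49-fold, as were 1.64% of all tested genes.

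**Figure D3:**
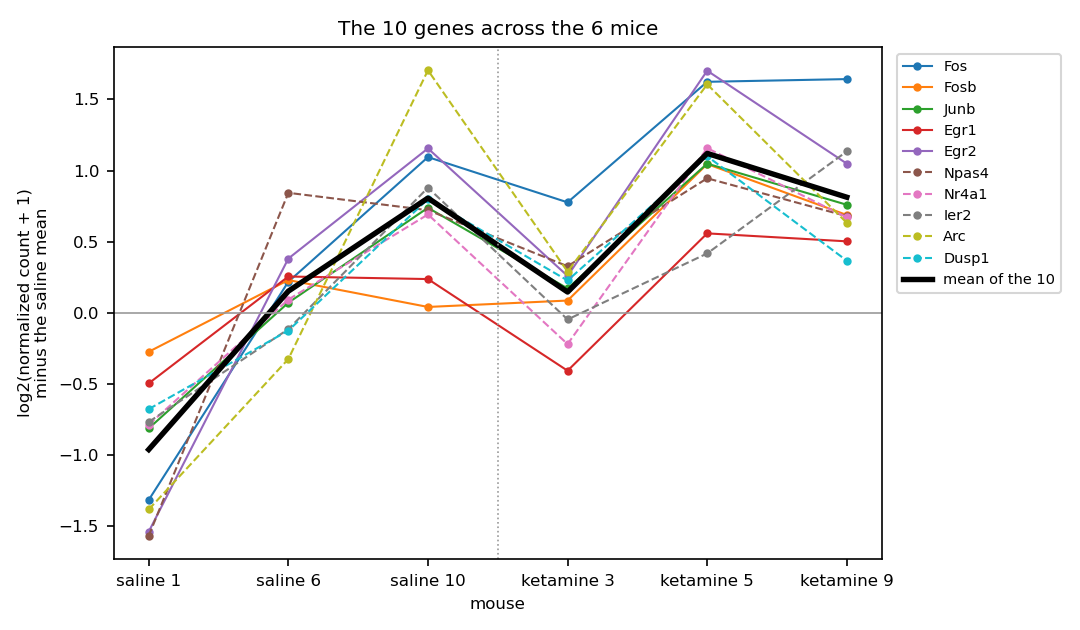
Level of each of the 10 genes in each mouse (y axis, log2(normalized count + 1) minus the mean of the saline mice), with the mean of the 10 genes as a thick black line. The lines join values of 1 gene and imply no order of the mice. All 10 genes are below the saline mean in saline mouse 1 and above it in saline mouse 10 and in ketamine mice 5 and 9.

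The spread between mice of 1 group ranked high among all tested genes. The SD of log2 values among the saline mice had a median of 0.80 over the 10 genes, from 0.26 (Fosb) to 1.57 (Arc), against 0.19 over all tested genes. It exceeded the 90th percentile of all tested genes, 0.59, for 8 of the 10, the exceptions being Fosb and Egr1. Among the ketamine mice the median was 0.52, against 0.28 over all tested genes, and 1 of the 10 (Egr2) exceeded the 90th percentile of 0.71. The whole range over the 6 mice had a median of 3.79-fold for the 10 genes and 1.64-fold for all tested genes.

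**Figure D4:**
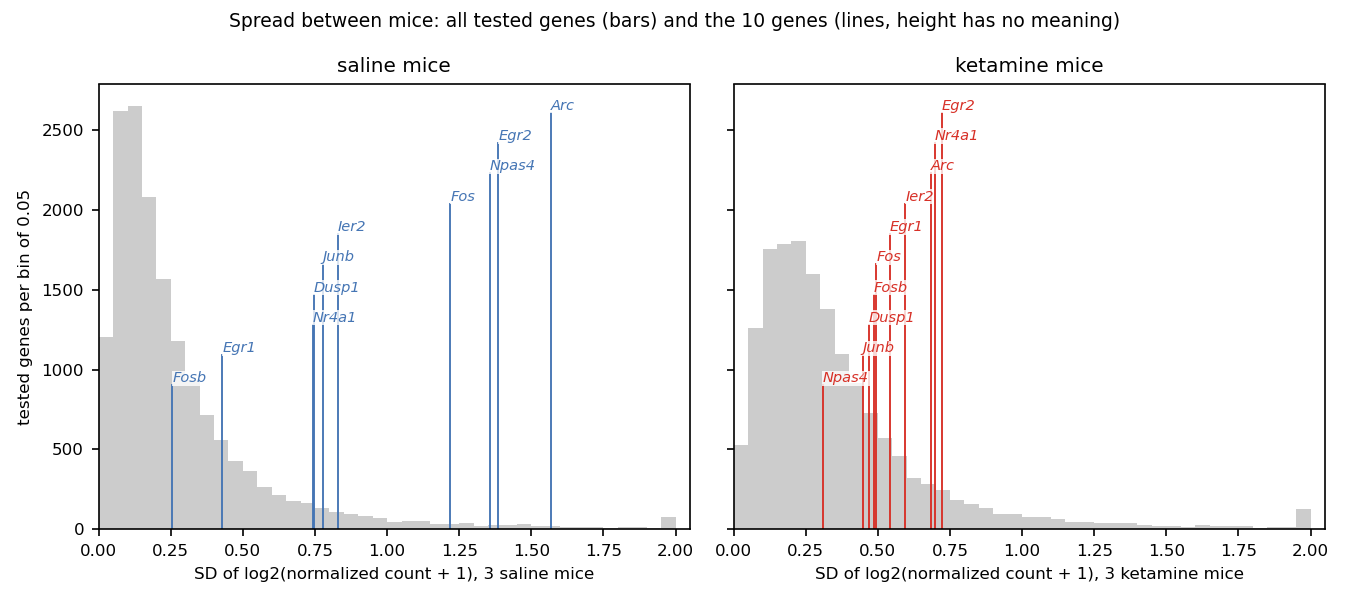
Spread within groups: number of tested genes (grey bars) by the SD of their log2 values over the 3 saline mice (left) or the 3 ketamine mice (right), with the 10 genes as coloured lines whose height carries no value. Genes with an SD above 2 are in the last bar. Among saline mice 8 of the 10 genes lie above 0.59, the 90th percentile, and among ketamine mice only Egr2 lies above its 90th percentile of 0.71.

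Levels can be compared between genes once divided by exon length. Per kb of exon, Egr1 had the highest level in saline mice, 1945 ± 522 normalized counts per kb, above that of 95.2% of tested genes. Arc (1014 ± 1060), Nr4a1 (792.8 ± 378) and Junb (727.6 ± 366) followed. Lower levels were those of Dusp1 (245.6 ± 130), Fos (184.6 ± 130), Npas4 (171 ± 109) and Ier2 (159.6 ± 93). Fosb (65.5 ± 11.3) and Egr2 (38.9 ± 28.5 normalized counts per kb, SD, n = 3 each) were lowest. The ranges of mean ± SD overlapped for every pair of neighbours in this order. In ketamine mice the order was the same but for Fos, at 395.3 ± 120 per kb, which stood above Dusp1 at 344.6 ± 119. The ratio of Fos to Fosb per kb varied among saline mice from 1.12 in mouse 1 to 2.28 in mouse 6 and 4.79 in mouse 10, and was between 3.44 and 4.47 in the ketamine mice. The ratio of Arc to Egr1 per kb was 0.196, 0.242 and 1.0 in saline mice 1, 6 and 10, and between 0.396 and 0.748 in the ketamine mice.

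Relatives of these genes in the same families lay on both sides of 0. Fosl2, another Fos family gene, had 549.8, 592 and 636 normalized counts in saline mice 1, 6 and 10, against 649.97, 1236 and 840.3 in ketamine mice 3, 5 and 9. Every ketamine mouse was above every saline mouse, by a narrow margin for mouse 3, and the log2 fold change of 0.57 ± 0.24 (SE) did not pass (limma adjusted p = 0.851, DESeq2 adjusted p = 0.506, exact permutation p = 0.1). Jun and Jund overlapped between the groups, with log2 fold changes of 0.20 each (adjusted p = 0.999 by limma). Fosl1 had at most 0.98 normalized counts in any mouse and was not tested. In the EGR and NR4A families, Egr4 (0.29) and Nr4a2 (0.67) were higher and Egr3 (-0.48) and Nr4a3 (-0.37) lower on the log2 scale, none of them past the threshold (adjusted p = 0.999 each by limma). Egr3 had 1444, 1405 and 931 normalized counts in the saline mice and 827, 1397 and 605.5 in the ketamine mice. Unlike the 10 genes, Egr3 was highest in saline mouse 1.

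A broader list of 47 other rapid primary response genes had 32 with a higher and 15 with a lower mean in ketamine, while 47.0% of all tested genes were higher. The median log2 fold change was 0.17, and 0.08 without saline mouse 1. Of these, 20 (42.6%) were lowest in saline mouse 1, beside 12.7% of all tested genes. limma and edgeR called 0 of the 47, with 7 and 5 at an unadjusted p under 0.05 (5.81% and 6.24% of all tested genes), and DESeq2 called 1 (1.13% of all). This gene was Sik1, a salt-inducible kinase that restrains CREB coactivators. Sik1 had 202, 231 and 352.5 normalized counts in the saline mice and 623, 734 and 492 in the ketamine mice. The groups did not overlap, with a log2 fold change of 1.25 ± 0.25 (SE, limma adjusted p = 0.328, DESeq2 adjusted p = 0.00331, exact permutation p = 0.1). Gem, a small GTP-binding protein, had 40.2, 21.2 and 62.6 against 85.2, 99.7 and 95.2 normalized counts, with a log2 fold change of 1.28 (adjusted p = 0.636 by limma, 0.238 by DESeq2). Btg1, an antiproliferative gene, had a log2 fold change of 0.88 (adjusted p = 0.797 by limma), and ketamine mouse 9 was the highest at 2085 normalized counts.

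Among genes that respond late to activity, many of which encode secreted peptides, 19 were tested. Of these, 6 had a higher and 13 a lower mean in ketamine, where 47.0% of all tested genes were higher. The median log2 fold change was -0.21, which became -0.52 without saline mouse 10, -0.34 without ketamine mouse 5 and -0.12 without saline mouse 6 or saline mouse 1. limma and edgeR called 0, with 7 at an unadjusted p under 0.05 in each (5.81% and 6.24% of all tested genes), and DESeq2 called 2 higher (1.13% of all, in either direction). These were Penk and Tac1, precursors of enkephalin and of substance P, which are also in the list of striatal markers below. Scg2, a secretogranin, came next by p, with 5362, 4598 and 6100.2 normalized counts in the saline mice and 11062, 6820.5 and 10527 in the ketamine mice. All ketamine mice were above all saline mice (log2 fold change 0.80 ± 0.22 (SE), limma adjusted p = 0.551, DESeq2 adjusted p = 0.0575, exact permutation p = 0.1). For 4 genes of this list, named after their values were seen, every mouse given ketamine had less than every saline mouse. This held for 4.66% of all tested genes. The 4 were Nrn1 (-0.91 on the log2 scale, limma adjusted p = 0.628), Bdnf (-0.855, adjusted p = 0.628), Ptgs2 (-0.83, adjusted p = 0.828) and Rasgrp1 (-0.47, adjusted p = 0.797). Penk, Tac1 and Scg2 were the 3 of the list with every ketamine mouse above every saline mouse (5.69% of all tested genes). Nrn1 and Bdnf encode secreted or surface-bound neurotrophic proteins.

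The signalling that induces immediate-early genes, from NMDA receptor subunits and calcium/calmodulin kinases to CREB and serum response factor, was represented by 45 tested genes. Of these, 16 were higher and 29 lower, beside 47.0% of all tested genes higher. Their median log2 fold change was -0.05 (0.05 without ketamine mouse 9). limma and edgeR called 0, with 3 and 4 at an unadjusted p under 0.05 (5.81% and 6.24% of all tested genes). DESeq2 called 1 of the 45 (1.13% of all tested genes), Camkk1, a kinase that activates CaMKIV and CaMKI. Camkk1 was lower in every ketamine mouse (log2 fold change -0.62, adjusted p = 0.401 by limma, 0.029 by DESeq2). Camk2g (-0.51, adjusted p = 0.636 by limma) and Camk2d (0.60, adjusted p = 0.855), both subunits of CaMKII, had the next smallest p-values and lay on opposite sides of 0. Among 13 feedback regulators, which include MAP kinase phosphatases and the NAB co-repressors of EGR proteins, 4 were higher and 9 lower, with a median of -0.11. There were 0 calls by any tool. At an unadjusted p under 0.05 each tool found 2 (limma 5.81%, edgeR 6.24% and DESeq2 6.54% of all tested genes). The smallest p-values here were those of Ppp3ca (-0.41, adjusted p = 0.797 by limma), the catalytic subunit of calcineurin, Dusp3 (-0.37, adjusted p = 0.828) and Spred2 (-0.36, adjusted p = 0.946).

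Genes of heat shock and tissue handling, which can be induced while tissue is taken, were nearly level between the groups. Of 18 tested, 12 were higher in ketamine and 6 lower, whereas over the whole tested set 47.0% were higher. The median log2 fold change was 0.03 (-0.11 without ketamine mouse 9). At an unadjusted p under 0.05, limma, edgeR and DESeq2 each found 0 of the 18. Over all tested genes these shares were 5.81%, 6.24% and 6.54%, and a list of 18 is too short to set 0 apart from them. The smallest p-values were those of Ddit4 (0.46), Hsph1 (-0.21) and Hsp90ab1 (-0.14, adjusted p = 0.999 each by limma). Their summed level was 131400 to 154800 normalized counts in saline mice and 126200 to 140300 in ketamine mice. Relative to the saline mean, the median log2 level of the list was -0.021 in saline mouse 1, and over the 6 mice it ran from -0.14 in ketamine mouse 3 to 0.25 in ketamine mouse 9. The part of tissue handling in the levels of the immediate-early genes was not tested.

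The tissue markers differed between libraries. All 12 markers of cortical excitatory neurons and all 8 of GABAergic neurons were detected in every library. The summed excitatory markers were 93270 to 122200 normalized counts in saline mice and 51470 to 87850 in ketamine mice, lowest in mouse 3. On average 10 of 12 were lower in ketamine, of which DESeq2 called 1, Neurod6 (1.13% of all tested genes were called). Striatal markers (13) summed to 9286 to 12440 in saline mice and to 63830, 33300 and 10600 in ketamine mice 3, 5 and 9, and Isl1, one of them, was at 0 in saline mice 1 and 6. Olfactory bulb markers (9 of 10 in the table) summed to 702.1 to 1847 in saline mice and 2236 to 12500 in ketamine mice, highest in mouse 9, with Lhx1 at 0 in saline mice 1 and 6. Oligodendrocyte markers (7) summed to 57290, 45000 and 386600 in the saline group (mice 1, 6 and 10) and to between 107200 and 164100 in the ketamine group. GABAergic markers summed to 22630 to 27280 in saline and 28540 to 43580 in ketamine mice, although 3 of the 8 were higher and 5 lower on average in ketamine (median log2 fold change -0.094). DESeq2 called 1 of the 8, Pvalb, which was lower. It also called 4 of the 13 striatal and 4 of the 9 olfactory bulb markers, all higher in ketamine. Of these 9 olfactory bulb markers, 1 had no p-value from DESeq2.

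Saline mouse 1, the lowest for all 10 immediate-early genes, can be set beside saline mouse 6. In mice 1 and 6 the sums were 121000 and 122200 for excitatory markers, 12440 and 12180 for striatal, 24410 and 22630 for GABAergic, 702.1 and 774 for olfactory bulb, 129900 and 113300 for astrocyte and 57290 and 45000 for oligodendrocyte markers. Ketamine mouse 3, with the fewest excitatory and the most striatal markers, was the lowest ketamine mouse for all 10 genes. Saline mouse 10 had the most oligodendrocyte markers and, among the saline mice, the lowest sum of excitatory markers (93270). It was the highest saline mouse for 7 of the 10, the exceptions being Fosb, Egr1 and Npas4. Astrocyte markers (7) summed to 113300 to 136000 in saline and 99250 to 136900 in ketamine mice, and vascular markers (9) to 9763 to 10660 and 9495 to 10100. Microglial markers (8) summed to 8555 to 10080 and 8928 to 9604, and blood genes (5) to 1435 to 1904 and 949.5 to 8996, highest in ketamine mouse 9. The part of tissue composition in the differences of the 10 genes was not tested.

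**Figure D5:**
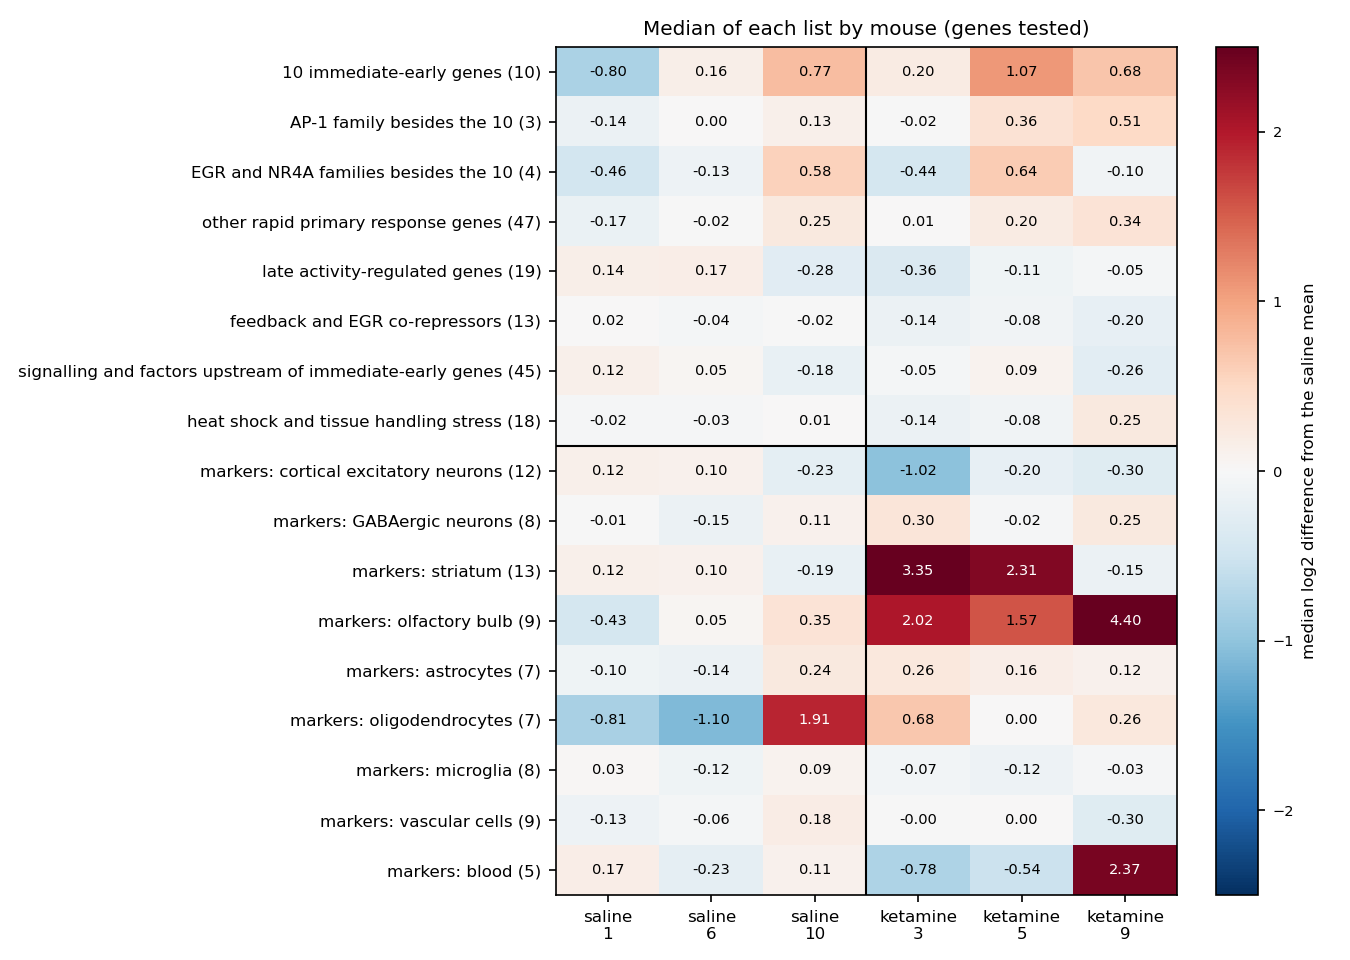
Median log2 difference from the saline mean of each gene list (rows, with the number of genes tested) in each mouse (columns), written in each cell and coloured from blue (lower) to red (higher), with colours saturated beyond 2.5 in either direction. The top row, the 10 immediate-early genes, is lowest in saline mouse 1, while the striatal row is raised in ketamine mice 3 and 5, the olfactory bulb row most in ketamine mouse 9 and the oligodendrocyte row in saline mouse 10.

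Of the 16117 tested genes outside the 10, the nearest in profile were sought by the root mean square difference of their log2 values from the mean profile of the 10 genes over the 6 libraries. The median difference of all these genes was 0.82. The 5 nearest were Mfsd2b (0.25), 1700016P03Rik (0.254), Gm16907 (0.27), Cpne7 (0.278) and AC119249.2 (0.285). The 10 genes themselves lay between 0.084 (Junb) and 0.509 (Fos) from their mean profile. Nearer to it than Fos were 194 genes outside the 10, with 176 for Arc, 102 for Egr1 and 0 for Junb, Nr4a1 and Dusp1. Each of the 10 is part of this mean, which by itself brings it nearer. These counts therefore do not compare like with like. Gm16907 and AC119249.2 had at most 20.9 normalized counts in any mouse. The noncoding gene 1700016P03Rik (ENSMUSG00000085609, mm9 chromosome 11 from 74986062 to 74991135, plus strand) had 65.1, 148 and 331 normalized counts in saline mice 1, 6 and 10, against 124, 373 and 257 in ketamine mice 3, 5 and 9. Like 7 of the 10 genes, it was lowest in saline mouse 1 and highest in ketamine mouse 5 (log2 fold change 0.63, adjusted p = 0.999 by limma). It spans the precursors of miR-212 (74986890 to 74986980) and miR-132 (74987167 to 74987267) on the same strand. The row of Mir132, sixth in the order and named here after its values were seen, had 8.62, 12.6 and 21.96 normalized counts in the saline mice and 18.6, 38.6 and 29.9 in the ketamine mice (log2 fold change 1.001, adjusted p = 0.887 by limma). Reads of this row cannot be told apart from those of the longer transcript, and small RNA was not measured. Cpne7, a copine, had 733, 863 and 2060.1 normalized counts in the saline mice and 1371, 2133 and 1982 in the ketamine mice.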

How the data were processed

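RNA Seq was performed on the PLc of 3 saline and 3 ketamine mice. The authors aligned 100-base paired-end reads to mm9 with TopHat2 2.0.11, counted them with HTSeq and used DESeq2. The deposited table holds 1 signal value per gene and library, namely counts divided by a size factor. Dividing by the value of 1 read gave whole reads (tolerance 0.05) for 100.0% of values. The strand setting and annotation release are not given in the sources used here, so genes overlapping on opposite strands may share reads. The labels do not describe litters or cages, so p-values measure the spread between these mice.

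Values were compared as log2(value + 1), a scale that understates changes of low genes, with limma 3.58.1 (trend, two-sided, Benjamini-Hochberg) in R 4.3.3. A mean of 10 normalized counts was the minimum. The study's package, DESeq2 1.42.0, and edgeR 4.0.16 (quasi-likelihood) were run on recovered reads. Genes to which DESeq2 gave no p-value were counted as not called. Further alternatives were pseudocounts of 0.1 and 5, no filter, a minimum of 100, no trend, other scalings and leaving out each mouse. The fits were tested on simulated data. Gene lists were matched by symbol to GENCODE M1 (mm9). Intervals on reads are exact Poisson ones and cover counting error only. The genes named were the 10, the 3 smallest p-values of each list other than markers, the relatives of the families and the 5 nearest profiles. Marker genes were named where a library was at 0 (Isl1, Lhx1) or DESeq2 called a lone gene of the list (Neurod6, Pvalb), and Mir132 and 4 late genes after their values were seen. Members and lists were chosen with earlier results of these data known.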

Additional observations from a re-analysis of the deposited data

How the results depend on the processing

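Of 150 recomputed log2 fold changes of the 10 genes, 15 alternatives each, 148 kept their direction and stayed short of the threshold. The other 2 turned negative, Egr1 (-0.029) and Npas4 (-0.131), both without saline mouse 1. With a mouse left out, Egr1 ranged from -0.029 to 0.531 and Npas4 from -0.131 to 1.073. The lowest adjusted p was 0.274 (Fos, limma, without saline mouse 10). The count of genes called by limma was 0 and became 182 with DESeq2, of which 79.7% were higher, and 0 to 1 with a mouse left out. The median of the 10 genes ranged from 0.19 (without saline mouse 1) to 0.99 (without saline mouse 10) with a mouse left out, and that of the other rapid genes from 0.08 to 0.29. The median of the late genes was -0.52 without saline mouse 10, and -0.52 to -0.12 over all mice left out. The cause was not tested. Scaling kept the median of all genes between -0.02 and 0.01. No paired analysis was possible because the labels give no litter, cage or other grouping by which mice could be paired. With 3 mice a group, the 95% interval of each of the 10 differences includes 0. Of the 10 genes, only Egr2 in saline mouse 1 rested on fewer than 100 reads.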
